A study of Mus musculus with 8 samples.

Results

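Lenvatinib-resistant organoids of lines SNU-6624 and SNU-6625 were compared with organoids of the same lines treated with lenvatinib. Each line gave 1 resistant and 1 lenvatinib library, so the comparison rests on 4 of the 8 bulk RNA-seq libraries of the series, paired by line. The libraries were grouped by their labels, and 17038 genes were tested. The organoids are mouse 3-dimensional cultures of liver tumour cells, labelled as hepatocellular carcinoma from fatty liver disease (MASH), with the genotype label WT in every library. The lenvatinib libraries come from SNU-6624-TO and SNU-6625-TO and carry the treatment label Lenvatinib. The resistant libraries come from SNU-6624-TO-LEN and SNU-6625-TO-LEN, cultures labelled lenvatinib-resistant, and carry the treatment label control. Resistance and the difference in treatment label therefore cannot be told apart in this comparison. The labels give no dose, no length of treatment and no account of how resistance was obtained. The parental libraries of the same lines, also labelled control, are given beside each value as the untreated level, and they helped to estimate the spread between libraries.

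Lenvatinib is an oral inhibitor of the receptors for VEGF and FGF, of PDGFRA, KIT and RET, and is used to treat liver cancer. Cells that lack amino acids often switch on the integrated stress response, in which the factor ATF4 raises amino acid transporters and synthesis enzymes. The factor NRF2 answers oxidative stress and heme with detoxifying and iron-handling genes. Epithelial cells of the bile duct and gut are marked by simple keratins and claudins, and HNF4A is a transcription factor of hepatocytes and gut epithelium. In contrast, involucrin, loricrin and small proline-rich proteins build the tough envelope of squamous epithelium. NF-kB is a transcription factor of inflammation whose targets include neutrophil chemokines and its own inhibitors.

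The 4 libraries held 50.5 to 61.03 M counts (megacounts, counts of reads assigned to genes) and 19426 to 20149 genes with a count above 0. A count of 3, used as the floor for a gene at 0 in a library, equalled 0.0492 to 0.0594 plain CPM, that is, counts scaled to 1 megacount of library. Sums over lists and bounds made from the floor are also plain CPM, whereas the CPM of single genes carry the TMM scaling in addition. Ribosomal RNA genes took 0.0411% to 0.0533% of counts in these 4 libraries and 0.102% and 0.107% in the parental libraries of the same lines. The resistant libraries of the 2 lines were further apart from each other than the lenvatinib libraries were, with a chi-square per gene of 328 against 44.0. The resistant library of SNU-6625 stood apart in cell cycle genes, so changes are also given within each line. Alb, the gene of serum albumin that defines hepatocytes, had 0 counts in all 6 libraries. Of 29 hepatocyte genes, 9 reached the test, and for 17 no library of the 4 held more than 3 counts. Genes of bile duct and progenitor cells were in contrast abundant, with a summed level of 5578 and 6302 CPM in the lenvatinib libraries and 21552 and 24589 CPM in the resistant ones.

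The test (the quasi-likelihood F test of edgeR, with Benjamini-Hochberg adjusted p-values below 0.05 called) found 1061 genes that differed, 6.23% of those tested. Of these, 706 genes were higher in the resistant libraries (4.14% of those tested) and 355 were lower (2.08%). Rises were also larger than falls: 361 called genes were at least 4-fold higher and 53 at least 4-fold lower, with a median log2 fold change of 2.05 among the rises and -1.27 among the falls. Every called gene moved the same way in both lines, which calling in a fit with a term for line favours. Over all tested genes the median log2 fold change was 0.02, and this value and the shares of 4.14% and 2.08% are the background for the counts of gene lists. By fold alone, 1829 genes were at least 2-fold higher in both lines and 818 at least 2-fold lower. Another 308 genes were at least 2-fold higher in SNU-6624 but lower in SNU-6625, and 96 showed the reverse. Where resistant values are set beside parental ones, they describe the 2 libraries of each group. In the same edgeR fit, resistant against parental had an adjusted p of 0.247 for Ivl, Muc4, Cxcl5 and Egr3. It was 0.383 for Krt19, so none of these was called against the parental libraries. Even Dbp and Prl2c3, with log2 fold changes of -4.12 and 2.24 against parental, had an adjusted p of 0.247. Resistant levels described below as above or below the parental ones are therefore values and not calls. In bulk samples, fewer cells of a type and less RNA per cell cannot be told apart.

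**Figure D1:**
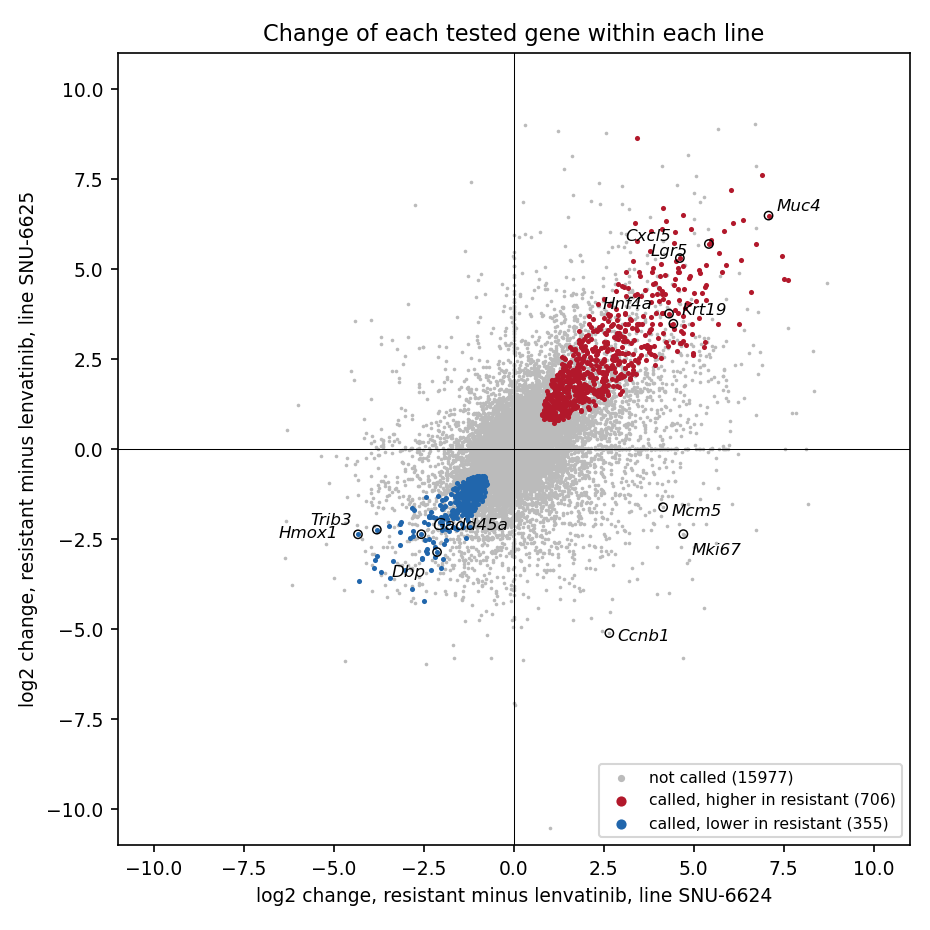
Each point is 1 of the 17038 tested genes, with its log2 change from the lenvatinib to the resistant library in SNU-6624 on the horizontal axis and in SNU-6625 on the vertical axis. The 706 genes called higher (red) lie in the upper right and the 355 called lower (blue) in the lower left, while the cell cycle genes Mki67, Ccnb1 and Mcm5 lie at the lower right, up in 1 line and down in the other.

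The number of calls depended on the libraries used. Without either lenvatinib library no gene was called by edgeR (2435 genes had an unadjusted p under 0.05 without that of SNU-6624 and 2308 without that of SNU-6625), and 90 and 118 genes were called without the parental library of SNU-6624 and of SNU-6625. Without the resistant library of SNU-6624 or SNU-6625, 6286 and 5867 genes were called. With no scaling beyond library size, which shifted the median of all genes to -0.14, 596 genes were called higher and 663 lower, so that 47.3% of calls were rises against 66.5% here. In that fit too, none of the 134 called genes that the naming rule picked changed direction.

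Hmox1 and Ftl1, genes of heme breakdown and iron storage, were lower in resistant organoids, whereas most of the iron list was not called. Hmox1 encodes heme oxygenase 1. The gene, which lies at chromosome 8, 75093618 to 75100593 (GRCm38), was at 766 and 345 CPM in the lenvatinib libraries (given throughout as SNU-6624 and then SNU-6625) and at 37.9 and 67.1 CPM in the resistant libraries, beside 30.6 and 21.8 CPM in the parental ones. In each line the resistant level was far below the lenvatinib level and above the parental level. The difference between resistant and parental libraries was small in SNU-6624 and was not called (log2 fold change 1.07, adjusted p = 0.370). The log2 fold change of Hmox1 was -3.31 (SE 0.55, adjusted p = 0.04697), with -4.33 and -2.36 within the lines. Ftl1, the light chain of the iron store ferritin, fell from 8970.1 and 7567 CPM to 1576 and 1852 CPM, below its parental 2522 and 2012 CPM, a log2 fold change of -2.26 (SE 0.35, adjusted p = 0.0435). Its near-identical copy Ftl1-ps1 was called in the same direction (-2.23 on the log2 scale), and reads may be shared between them. The ferritin heavy chain gene Fth1 differed between the lines: it was at 3711 and 4046 CPM in the lenvatinib libraries and at 1346 and 3483 CPM in the resistant libraries, where only SNU-6624 was near its parental 1205 and 841 CPM, and it was not called (adjusted p = 0.401).

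Among 35 tested genes of the NRF2 and glutathione list, Hmox1 and Ftl1 were called lower and none higher, with a list median of -0.75. The 2 lines were unlike in size, with a median of -1.46 in SNU-6624 against -0.22 in SNU-6625, and 22 genes were lower in both lines. Txnrd1, a thioredoxin reductase, was at 1390.5 and 1172 CPM with lenvatinib and 256 and 518 CPM in resistant organoids, and the glutathione synthesis gene Gclm at 818 and 597 and 86.4 and 319 CPM. Neither was called (adjusted p = 0.0723 and 0.169), and for both the resistant library of SNU-6625 held a higher level than that of SNU-6624. Of 24 tested iron and ferroptosis genes, Hmox1 and Ftl1 fell and Acsl4, which loads long polyunsaturated fatty acids into membrane lipids, rose by 1.55 (SE 0.27) on the log2 scale. The other 21 were not called, and the list had a median of 0.38, with 11 genes higher and 10 lower in both lines.

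The integrated stress response list had 6 of 39 tested genes called lower and none higher. Its median was -0.71 (-1.19 in SNU-6624 against -0.60 in SNU-6625), and 27 members were lower in both lines. Trib3, a pseudokinase induced by ATF4, was at 272 and 165 CPM in the lenvatinib libraries and at 19.3 and 35.04 CPM in the resistant libraries, which overlapped its parental 42.7 and 27.3 CPM. The fold change was -2.96 on the log2 scale (SE 0.48, adjusted p = 0.0456). Slc1a4, a transporter of alanine, serine and cysteine, went from 1569.5 and 1409 to 141 and 322 CPM, below both parental libraries (348 and 523 CPM). Slc7a5, the light chain of a transporter of large neutral amino acids, went from 181 and 109.6 to 53.9 and 46.6 CPM, which was close to its parental 55.1 and 46.99 CPM. Ddit3, which encodes the stress factor CHOP, fell too (log2 fold change -1.25, SE 0.16), and its resistant level of 67.5 and 51.1 CPM was still above the parental 42.2 and 25.3 CPM.

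Aldh1l2, a folate enzyme of mitochondria, had another pattern: it was at 79.1 and 47.4 CPM in parental, 57.00 and 47.3 CPM in lenvatinib and 10.2 and 8.21 CPM in resistant libraries. Of the 3 groups, the resistant one alone was low (log2 fold change -2.5, SE 0.19, adjusted p = 0.0216 against lenvatinib). Against the parental libraries its fold change was -2.75 with an adjusted p of 0.247, in a fit that shares the resistant libraries. Asns, asparagine synthetase, stood at 311 and 306 CPM with lenvatinib and 97.01 and 129.7 CPM in resistant organoids and narrowly missed the threshold (adjusted p = 0.0584). Chac1, which degrades glutathione, was at 99.1 and 69.1 and 26.7 and 43.5 CPM (adjusted p = 0.126). The list did not move as a block: Atf3, a stress and immediate early factor, was at 422 and 286 CPM with lenvatinib and 963 and 1058 CPM in resistant organoids (adjusted p = 0.0516).

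Pck2, the mitochondrial form of the enzyme that makes phosphoenolpyruvate, is shown with its promoter because it was the called list member whose promoter held the amino acid response motif TGATGNAA. The motif was searched on both strands in the 250 bases before the start in RefSeq (GRCm38.p6), which was on hand for 12198 of the tested genes. It was found in 2.58% of these promoters and in 10 of 32 from the stress response list, among them 1 of the 4 called members with a promoter. The 150 bases before the start of Pck2 (chr14:55540116-55540265, plus strand) follow, with the match, on the opposite strand, in capitals.
Pck2: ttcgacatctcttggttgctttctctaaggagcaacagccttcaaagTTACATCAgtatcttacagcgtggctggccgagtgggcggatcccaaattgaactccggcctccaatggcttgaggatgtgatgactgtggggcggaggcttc
Pck2 was at 133 and 145 CPM in the lenvatinib libraries, 35.3 and 48.8 CPM in the resistant and 74.3 and 60.8 CPM in the parental libraries. It fell by 1.73 on the log2 scale (SE 0.23, adjusted p = 0.03799), to below its parental level.

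Of 18 tested clock genes, 4 were called lower in resistant organoids, none was called higher and 14 were not called. The list median was -0.51, with -1.11 in SNU-6624 against -0.12 in SNU-6625, and 10 genes were lower and 4 higher in both lines. Dbp, a rhythmic transcription factor that acts on liver metabolism, was at 38.3 and 42.8 CPM in parental, 11.4 and 15.2 CPM in lenvatinib and 2.58 and 2.06 CPM in resistant libraries. The lower resistant values of Dbp were not called against the parental libraries (adjusted p = 0.247). Tef, a relative of Dbp, was at 122 and 92.9 CPM in lenvatinib and 54.3 and 51.9 CPM in resistant libraries. Ciart and Nr1d1, which both repress the core clock, had higher values in the lenvatinib and lower values in the resistant than in the parental libraries. Against the parental libraries, the rise with lenvatinib was called for Ciart (adjusted p = 0.0422) but not for Nr1d1 (adjusted p = 0.0695). The lower resistant values were called for neither (adjusted p = 0.247 for Ciart and 0.323 for Nr1d1). Ciart was at 10.1 and 7.31 CPM in parental, 28.2 and 23.1 CPM in lenvatinib and 3.401 and 2.21 CPM in resistant libraries. Nr1d1 was at 58.01 and 61.5 CPM, 186 and 135 CPM and 26.3 and 43.6 CPM in the same groups. Log2 fold changes against lenvatinib were -2.51 (SE 0.26), -1.0 (SE 0.16), -3.22 (SE 0.24) and -2.22 (SE 0.33) for Dbp, Tef, Ciart and Nr1d1. The time of day at which cultures were collected is not given in the labels, and its part in these values was not tested.

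Vegfa, the main ligand of the VEGF receptors that lenvatinib blocks, was at 784 and 681 CPM in the lenvatinib libraries and 342 and 286 CPM in the resistant ones, below the parental 563 and 521 CPM. Its fall of 1.22 on the log2 scale (SE 0.20, adjusted p = 0.04505) made it the sole called gene of 31 tested hypoxia and glycolysis genes, near the background share of 2.08%. Gas6, a ligand of the AXL receptor family, fell from 631 and 554 CPM to 92.4 and 172 CPM, below the parental value of each line (172 and 186 CPM). Gadd45a, a growth arrest gene of the stress and p53 responses, fell from 185 and 121 CPM to 31.04 and 23.5 CPM and had a standard error of 0.15 on a log2 fold change of -2.47. The chromatin reader Brd2, the translation kinase gene Mknk2, the heat shock regulator Hsf1 and the autophagy kinase gene Ulk1 fell by 1.49, 1.4, 1.18 and 1.12 on the log2 scale. Each of these 4 was higher with lenvatinib than in either other group. Among the 12 largest falls were also Ces1f, a carboxylesterase of the liver (7.18 and 5.45 CPM with lenvatinib against 0.629 and 0.427 CPM), Osbp2, an oxysterol-binding protein (10.3 and 5.13 against 0.668 and 0.576 CPM), and the transcriptional repressor Zbtb20 (7.52 and 4.66 against 0.983 and 0.817 CPM).

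**Figure D2:**
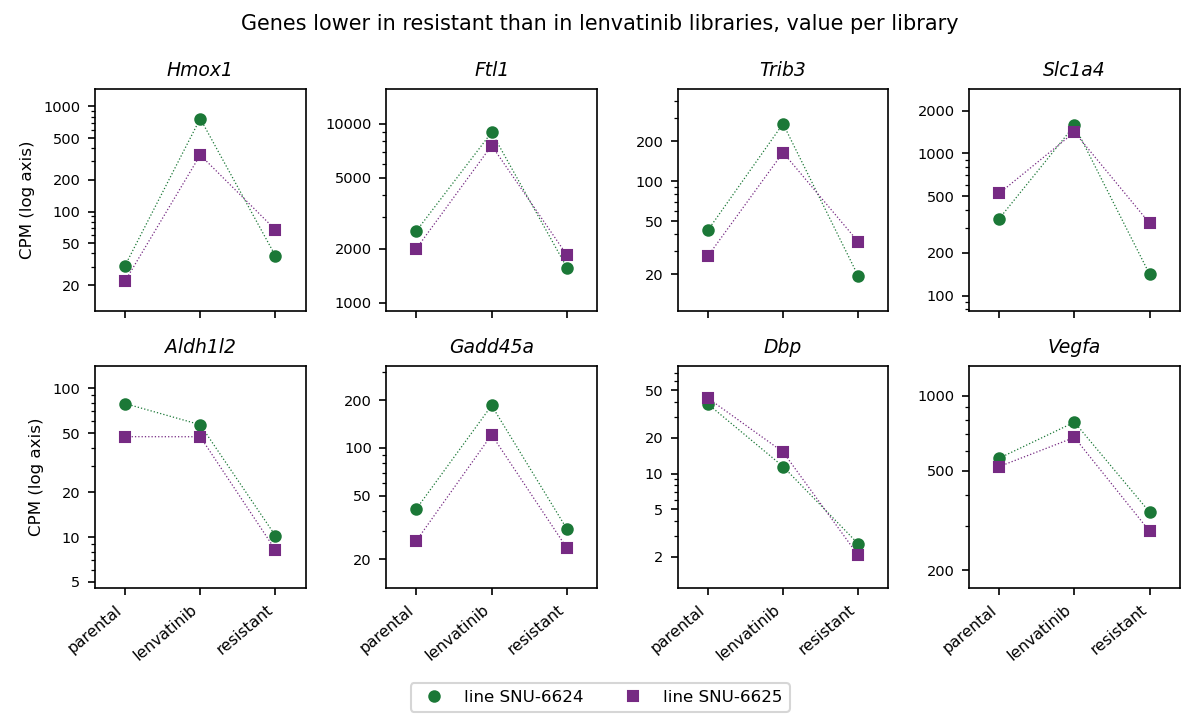
CPM on a log axis for 8 genes that were lower in resistant than in lenvatinib libraries, in parental, lenvatinib and resistant libraries of SNU-6624 (green circles) and SNU-6625 (purple squares), with 1 library per point. Hmox1, Ftl1, Trib3, Slc1a4 and Gadd45a peak with lenvatinib, while Aldh1l2 and Dbp have their lowest values in the resistant libraries.

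Keratins of simple epithelium were among the largest rises by level. Krt19, a duct cell keratin at chromosome 11, 100140810 to 100145926, was at 259.8 and 370.5 CPM in the lenvatinib libraries and 5605 and 4159 CPM in the resistant libraries, above its parental 2939.7 and 3041 CPM in each line. The log2 fold change was 3.96 (SE 0.40, adjusted p = 0.0304). Krt7 went from 729 and 881 to 4381 and 4005 CPM and Krt8 from 882 and 921 to 3990.3 and 6375 CPM, and the resistant level of both exceeded the parental level in each line (2347 and 2014 CPM for Krt7, 2423 and 3150.3 CPM for Krt8). In the biliary and progenitor list 8 of 21 tested genes were called higher and none lower. The list median was 1.82, and 19 members were higher in both lines. Spp1, the secreted phosphoprotein osteopontin, was at 0.585 and 0.993 CPM with lenvatinib, 34.2 and 31.1 CPM in resistant and 3.53 and 10.98 CPM in parental libraries, a log2 fold change of 5.48 (SE 0.56). The tetraspanin gene Tspan8 and the transcription factor gene Sox4 rose by 3.43 and 2.31. Sox9, a duct and progenitor factor, was at 53.8 and 57.7 and 76.9 and 195 CPM and was not called (adjusted p = 0.105), nor was Epcam at 343 and 368 and 360.3 and 881 CPM (adjusted p = 0.266).

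Hnf4a, the gene of a nuclear receptor that sets hepatocyte and gut epithelial identity, was low in the lenvatinib libraries alone of the 6. It lies at chromosome 2, 163506811 to 163572907. Its level was 5.44 and 10 CPM in the lenvatinib libraries and 109 and 137 CPM in the resistant libraries. The resistant values overlapped the parental values of 91.97 and 147 CPM, and the log2 fold change against lenvatinib was 4.05 (SE 0.21, adjusted p = 0.0174). The pioneer factor gene Foxa1 rose from 44.2 and 41.95 CPM to 101 and 112 CPM, and the resistant values were above the parental 65.2 and 69.2 CPM. Nr1h4, the bile acid receptor FXR, was near the detection limit with lenvatinib, at 0 and 11 counts. It had 14 and 362 counts in the resistant and 20 and 180 counts in the parental libraries. In each group it was higher in SNU-6625, so its rise rests mainly on that line. Together 4 of 17 tested liver factors were called higher and none lower (median 1.02). None of 9 tested hepatocyte genes was called, and their median was 1.22, or 1.13 with genes at 0 in a whole group set to their bound. With so few genes, most of them low, no call is near the background share of 4.14%.

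The stem cell marker Lgr5, a receptor that strengthens Wnt signals, was at 0.688 and 0.976 CPM in the lenvatinib libraries and 30.9 and 52.8 CPM in the resistant libraries. Its parental levels of 16.9 and 72.2 CPM spanned the resistant ones, and the log2 fold change against lenvatinib was 5.63 (SE 0.51, adjusted p = 0.0272). The Wnt feedback gene Axin2 and the receptor gene Ephb2 rose by 1.36 (SE 0.18) and 1.58 (SE 0.21). With Ly6a, a surface protein of regenerating epithelium, these made 4 of 14 tested Wnt and stem cell genes called higher, none lower (median 0.58). Ly6a was at 279.5 and 269.5 CPM with lenvatinib and 1651 and 916 CPM in resistant organoids, and both resistant values were below the parental 2075 and 1856 CPM.

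Of 18 tested gut epithelial genes, 4 were called higher, none lower and 14 were not called, with a median of 1.91. In both lines 12 genes were higher and 2 lower. Cdh17, a cadherin of intestinal epithelium, went from 16.7 and 42.8 to 593 and 534 CPM, and Vil1, the microvillus protein villin, from 11.3 and 20.3 to 348 and 188 CPM. Krt20, a keratin of mature gut cells, rose by 3.57 (SE 0.23, adjusted p = 0.0174), from 26.2 and 41.4 to 364 and 414 CPM, with parental values of 185 and 303 CPM. These 3 and Muc13 were the called genes. Summed over the list, the resistant levels of 3605 and 1846 CPM did not follow the parental order of 2763 and 5032 CPM, and the lenvatinib levels of 213 and 370 CPM lay far below both groups.

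Cell junction genes had 10 of 29 tested members called higher and none lower (median 1.05, 24 higher in both lines). Cldn6, a claudin of tight junctions known from embryonic and tumour epithelium, was at 10.98 and 19.3 CPM with lenvatinib, 153 and 195 CPM in resistant and 144 and 169 CPM in parental libraries (log2 fold change 3.56, SE 0.22). Cldn2, which forms a cation pore, kept a difference between the lines in every group: it was at 173 and 509 CPM in parental, 35.6 and 102 CPM in lenvatinib and 179 and 676 CPM in resistant libraries, higher in SNU-6625 each time. The desmosome genes Dsc2, Dsp and Pkp3 rose by 2.09, 1.27 and 1.74, and the gap junction genes Gjb1 and Gja1 by 1.91 and 1.8 on the log2 scale.

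Squamous and cornified envelope genes had a median log2 change of 3.62, with 8 of 28 tested genes called higher, none lower, and 24 higher in both lines. Per line, where a prior count of 2 pulls low genes towards 0, the median was 3.19 in SNU-6624 against 2.71 in SNU-6625. Ivl, involucrin, at chromosome 3, 92570899 to 92573790, was at 47.6 and 54.97 CPM in parental, 15.8 and 21.9 CPM in lenvatinib and 351 and 323 CPM in resistant libraries. The resistant values were thus far above both other groups, but the difference from the parental libraries was not called (adjusted p = 0.247). The log2 fold change against lenvatinib was 4.18 (SE 0.23, adjusted p = 0.0174). Sprr1a, a small proline-rich envelope protein, had the same order, at 546 and 325 CPM in parental, 126 and 105 CPM in lenvatinib and 1512 and 1363 CPM in resistant libraries. Summed over the list, the resistant level was 11531 and 4059 CPM. The parental level was 7662 and 5449 CPM and the lenvatinib level 3022 and 2407 CPM. By this sum resistant SNU-6624 was above its parental level and resistant SNU-6625 below. Tgm1, the enzyme that crosslinks the envelope, rose by 4.93 (SE 0.24), but its level differed between the lines in each group (4.77 and 0.808 CPM with lenvatinib, 125 and 29.03 CPM in resistant organoids). Lor, loricrin, rose from 0.138 and 0.404 to 11.4 and 64.8 CPM. Krt84 had 0 counts in both lenvatinib libraries and 139 and 20 counts in the resistant libraries. Its mean over the 2 lines was at least 28.4-fold higher when each lenvatinib library is set to the floor of 3 counts. This bound rests mainly on SNU-6624 and does not hold for SNU-6625 alone. The basal squamous factor gene Trp63 was at 0.293 and 0.0842 and 15.4 and 0.297 CPM, high in SNU-6624 alone, and was not called (adjusted p = 0.0891). The floor of 3 counts used for Krt84 takes in counting error alone and not the spread between libraries, and no molecular identifiers were used.

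Mucin and secretory genes had 5 of 23 tested members called higher and none lower, with a median of 1.39, or 0.91 when genes at 0 in a whole group are set to their bound. Muc4, a large membrane mucin, was at 2.03 and 3.64 CPM with lenvatinib, 279 and 331 CPM in resistant and 115 and 216 CPM in parental libraries, a log2 fold change of 6.81 (SE 0.29, adjusted p = 0.0174). The resistant values were above the parental ones in both lines. Gcnt3, which branches mucin sugars, rose from 14.6 and 17.7 to 83.6 and 141 CPM, under the parental value of each line (93.1 and 162 CPM). Pigr, the receptor that carries IgA across epithelium, rose from 6.799 and 8.64 to 133 and 147 CPM, above the parental 41.9 and 92.7 CPM.

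The retinoid pathway had 7 of 24 tested genes called higher and none lower (median 1.70, 20 higher in both lines). Stra6, the receptor that takes up retinol, was at 127 and 34.98 CPM in parental, 0.654 and 0.640 CPM in lenvatinib and 66.2 and 13.8 CPM in resistant libraries, with SNU-6624 higher than SNU-6625 in parental and resistant organoids. Rdh10, which oxidises retinol, was at 62.99 and 54.8 CPM with lenvatinib and 219.5 and 152 CPM in resistant organoids, beside a parental 112 and 104 CPM. Its log2 fold change was 1.64 (SE 0.18). Dhrs9, which also oxidises retinol, rose by 3.77, and Dhrs3, which works in the opposite direction, by 1.76. Cyp26b1, which breaks down retinoic acid, went from 8.28 and 10.9 CPM to 74.1 and 69.7 CPM, above its parental 20.4 and 14.3 CPM. Uptake, both directions of conversion and breakdown were thus represented among the called genes.

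**Figure D3:**
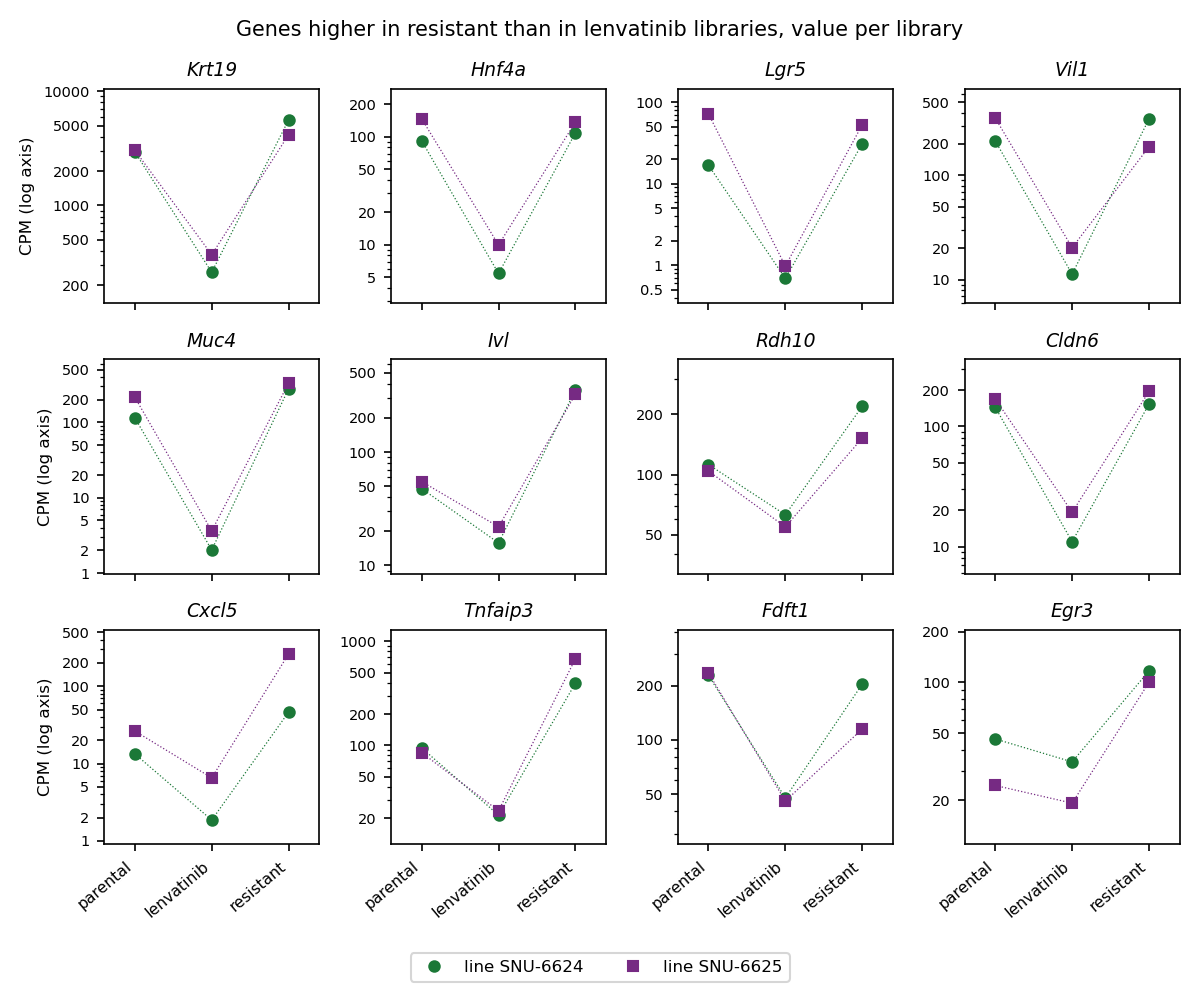
CPM on a log axis for 12 genes that were higher in resistant than in lenvatinib libraries, in parental, lenvatinib and resistant libraries of SNU-6624 (green circles) and SNU-6625 (purple squares), with 1 library per point. Hnf4a, Vil1 and Cldn6 are low with lenvatinib and similar in parental and resistant organoids, whereas in resistant organoids Ivl, Cxcl5, Tnfaip3 and Egr3 lie above the parental level.

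NF-kB targets and chemokines had 10 of 26 tested members called higher and none lower. The median was 2.48 (1.68 in SNU-6624 against 2.98 in SNU-6625), and 24 members were higher in both lines. The promoters of 4 of the 9 called members with a RefSeq promoter held the NF-kB motif GGGANTTTC on either strand, as did 7 of 20 tested members and 1.04% of all 12198 promoters searched. The 150 bases before the start of these 4 genes are shown because the members moved together, with each match in capitals: Cxcl1 (chr5:90891095-90891244, plus strand), Cxcl2 (chr5:90903749-90903898, plus strand), Ltb (chr17:35194357-35194506, plus strand) and Nfkbia (chr12:55492648-55492797, minus strand), all GRCm38.p6.
Cxcl1: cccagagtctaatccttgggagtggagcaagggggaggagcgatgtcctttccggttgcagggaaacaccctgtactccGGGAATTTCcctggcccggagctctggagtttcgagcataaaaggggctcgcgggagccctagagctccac
Cxcl2: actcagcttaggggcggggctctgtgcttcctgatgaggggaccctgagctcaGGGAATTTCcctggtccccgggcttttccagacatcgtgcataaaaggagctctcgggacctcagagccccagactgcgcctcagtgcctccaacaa
Ltb: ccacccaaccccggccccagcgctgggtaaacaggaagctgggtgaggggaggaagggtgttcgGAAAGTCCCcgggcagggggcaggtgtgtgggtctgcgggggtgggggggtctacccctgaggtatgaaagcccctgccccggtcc
Nfkbia: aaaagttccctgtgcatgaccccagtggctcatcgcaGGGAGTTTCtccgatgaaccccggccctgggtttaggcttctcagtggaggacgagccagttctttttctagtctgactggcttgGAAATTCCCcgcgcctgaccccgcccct
The matches begin 71 bases before the start in Cxcl1, 97 in Cxcl2, 86 in Ltb, and 113 and 28 in Nfkbia. None of these matches, nor that in Pck2, overlaps another of the 8 motifs searched. They describe these letters only, and no binding was measured.

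The chemokine genes Cxcl1, Cxcl2 and Cxcl5, whose products attract neutrophils, rose together and rose most in SNU-6625. Cxcl5 was at 13.4 and 26.3 CPM in parental, 1.86 and 6.53 CPM in lenvatinib and 46.3 and 261 CPM in resistant libraries, a log2 fold change against lenvatinib of 5.02 (SE 0.45, adjusted p = 0.0263). Cxcl1 was at 16.2 and 18.7 CPM with lenvatinib, 102 and 303 CPM in resistant and 42.1 and 38.7 CPM in parental libraries. For both genes the resistant values lay above all parental values. Cxcl2 rose from 0.396 and 0.572 to 6.29 and 14.5 CPM, and Ccl20, which attracts cells with the receptor CCR6, from 0.620 and 0.606 to 5.23 and 14.8 CPM.

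Tnfaip3 and Nfkbia, inhibitors of the pathway, were also called higher. Tnfaip3, at chromosome 10, 19000910 to 19015410, encodes A20, which ends NF-kB signalling, and was at 94.5 and 85.2 CPM in parental, 21.3 and 23.5 CPM in lenvatinib and 395 and 678 CPM in resistant libraries. Its log2 fold change against lenvatinib was 4.55 (SE 0.32, adjusted p = 0.0189). Nfkbia, the inhibitor IkB alpha, went from 121 and 106 to 274 and 442 CPM, with a parental 187 and 199.8 CPM. Birc3, an inhibitor of apoptosis, rose by 3.13 (SE 0.36). Of the cytokines, Tnf went from 2.51 and 7.49 to 8.59 and 23.96 CPM, close to its parental 8.65 and 20.3 CPM, and Ltb from 3 and 6 counts to 38 and 164 counts.

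Acute phase and antimicrobial genes had 4 of 24 tested members called higher and none lower (median 3.56, or 3.06 with genes at 0 in a whole group set to their bound). Duox2 and Duoxa2, the epithelial peroxide-producing oxidase and its maturation factor, rose by 5.7 (SE 0.53) and 7.03 (SE 0.94), and Duox2 went from 0.241 and 0.421 to 16.4 and 15.9 CPM. Il1rn, the interleukin 1 receptor antagonist, went from 95.04 and 67.2 to 786 and 1519 CPM, above the parental 508 and 494 CPM. Lcn2, the siderophore-binding lipocalin, was at 7.14 and 4.88 CPM in parental, 12.9 and 16.8 CPM in lenvatinib and 66.9 and 264 CPM in resistant libraries and was not called (adjusted p = 0.0606). Saa1, a serum amyloid protein, went opposite ways in the lines, with 29 and 102 counts with lenvatinib and 538 and 4 counts in resistant organoids (adjusted p = 0.667). The interferon list had 1 of 32 tested genes called, near the background share of 4.14%. This gene was Oas2, a sensor of double-stranded RNA, which rose from 3.39 and 4.23 to 14.2 and 38.1 CPM. Antigen presentation genes had 3 of 22 called, the class I genes H2-Q4 and H2-T23, which may share reads with relatives, and Psme1, all higher.

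Immediate early genes, switched on quickly by growth factors and stress, had 5 of 29 tested members called higher and Gadd45a lower (median 0.86). Egr3, a zinc finger factor, was at 46.2 and 24.5 CPM in parental, 33.8 and 19.2 CPM in lenvatinib and 117 and 100.2 CPM in resistant libraries. The resistant values were above all others, with a log2 fold change against lenvatinib of 2.1 (SE 0.23, adjusted p = 0.0316). Fosb, an AP-1 subunit, went from 481 and 417 to 1845 and 1386 CPM, and Klf4, Nr4a1 and Ier5 rose by 1.82, 1.68 and 1.52. Among 26 tested outputs of the ERK kinases, the ETS factor gene Etv4 and the cyclin gene Ccnd1 rose by 1.53 (SE 0.19) and 1.59 (SE 0.27), and none was called lower, while 3 were lower in both lines. Dusp6, the phosphatase that limits ERK, was at 236 and 306 CPM with lenvatinib and 331 and 459 CPM in resistant organoids, with a log2 fold change of 0.54 (SE 0.17, adjusted p = 0.126).

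The receptors that lenvatinib blocks were expressed at low levels. Kdr and Kit had 0 counts in all 6 libraries, and 6 of 11 target genes reached the test, none of them called. Their median of 1.64, or 0.91 with the gene at 0 in a whole group set to its bound, rests on these few low genes. Ret was at 13.5 and 6.89 CPM in parental, 0.585 and 0.219 CPM in lenvatinib and 2.67 and 3.83 CPM in resistant libraries. Its log2 fold change of 3.18 (SE 0.61) against lenvatinib missed the threshold (adjusted p = 0.0568). Resistant against parental was not called for Ret either (adjusted p = 0.308). Flt1, a VEGF receptor gene, had 0 and 5 counts with lenvatinib and 15 and 206 counts in the resistant libraries, and Fgfr3 was at 2.08 and 1.95 and 2.06 and 2.23 CPM.

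Of 19 tested growth factor ligands, Pdgfc and Fgfbp1 rose and Vegfa fell. Pdgfc, a ligand of PDGF receptors, went from 0.740 and 1.48 to 10.6 and 10.8 CPM (log2 fold change 3.33, SE 0.36), and Fgfbp1, which releases FGFs from the matrix, from 43.9 and 42.9 to 253 and 184 CPM. Both were a little under their parental values of 11.4 and 14.2 and 282 and 235 CPM. In the EGFR and MET list, the EGFR ligand gene Btc was the called member of 19, at 15.3 and 17.5 CPM with lenvatinib and 54.2 and 169.5 CPM in resistant organoids. That count is near the background share of 4.14%. The receptor gene Egfr itself was at 72.1 and 65.97 CPM in parental, 44.97 and 58.99 CPM in lenvatinib and 98.2 and 306 CPM in resistant libraries, high in resistant SNU-6625, and was not called (adjusted p = 0.0849). YAP and regenerative genes had 4 of 25 called higher and none lower (median 1.06), among them F3, tissue factor, at 64.4 and 63.5 CPM with lenvatinib and 297 and 778 CPM in resistant organoids.

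Of 24 tested sterol synthesis genes, 4 were called higher in resistant organoids and none lower, with a median of 1.34 and 17 members higher in both lines. Fdft1, squalene synthase, was at 47.6 and 45.7 CPM in the lenvatinib libraries and 204 and 115 CPM in the resistant libraries, beside a parental 229 and 236 CPM. The log2 fold change was 1.74 (SE 0.27, adjusted p = 0.0449). Msmo1 and Sc5d, later enzymes of the path, rose by 1.41 and 1.02. The lines differed in size, with a list median of 1.72 in SNU-6624 against 0.78 in SNU-6625. Hmgcs1, an early enzyme, shows this: it was at 62.4 and 63.1 CPM with lenvatinib and 568 and 193 CPM in resistant organoids, where SNU-6624 was above and SNU-6625 below the parental 479 and 482 CPM (adjusted p = 0.0599, not called). In fatty acid synthesis 1 of 23 tested genes was called, near the background share of 4.14%. This gene was the regulator Srebf1, at 77.6 and 80.4 CPM with lenvatinib and 187 and 154 CPM in resistant organoids. Fasn, fatty acid synthase, was at 124 and 138 CPM with lenvatinib and 561 and 184 CPM in resistant organoids and was not called (adjusted p = 0.160).

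Targets of p53 moved both ways, with 4 of 29 tested genes called higher and 3 lower (median 0.997). The TNF receptor family genes Eda2r and Tnfrsf10b rose by 1.89 (SE 0.16) and 1.2 (SE 0.17), with Gtse1 and Sulf2. Beside Gadd45a, the nucleotide supply gene Rrm2b and the repair gene Xpc fell by 1.92 and 0.93. Cdkn1a, the cell cycle inhibitor p21, was at 270.1 and 174 CPM with lenvatinib and 367 and 482 CPM in resistant organoids and was not called (adjusted p = 0.150). Apoptosis genes had 5 of 27 called higher and none lower (median 0.69): the pro-apoptotic Bok, Apaf1 and Casp8, the BCL2 relative Bcl2l14 and the anti-apoptotic Birc3. Casp8, the caspase of death receptors, went from 27.8 and 27.3 to 74.04 and 63.6 CPM, below its parental 117 and 109 CPM.

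Among drug metabolism genes 4 of 35 tested were called higher and Ces1f lower (median 0.92). Cyp3a13, a cytochrome P450 of the drug-oxidising CYP3A family, was at 43.9 and 108 CPM in parental, 12.8 and 25.8 CPM in lenvatinib and 93.7 and 237 CPM in resistant libraries, higher in SNU-6625 in each group. Its log2 fold change against lenvatinib was 3.04 (SE 0.17, adjusted p = 0.0174), and each resistant value exceeded the parental value of its line. Cyp1a1 and Cyp1b1, targets of the aryl hydrocarbon receptor, rose by 4.37 and 1.74. Abcb1a, which encodes the drug efflux pump P-glycoprotein, was at 16.2 and 53.7 CPM with lenvatinib and 60.7 and 221 CPM in resistant organoids, beside 42.5 and 245 CPM in parental ones. The rise of 1.97 (SE 0.25, adjusted p = 0.0365) thus ended near the parental level of each line. Of 14 tested ABC transporters, Abcb8 of mitochondria rose as well and Abcb6, a porphyrin transporter, fell by 1.46 (SE 0.17).

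The genes with the largest rises by the naming rule included Prl2c3 and Prl2c2, proliferins of the prolactin family that are near-identical and may share reads, which went from 0.120 and 0.202 to 18.6 and 47.00 CPM and from 0.241 and 0.471 to 23.04 and 42.2 CPM. Aqp3, a water and glycerol channel, rose from 0.241 and 0.286 to 15.9 and 21.7 CPM, Krt15, a keratin of basal cells, from 0.172 and 0.320 to 37.9 and 9.397 CPM, and Fut9, which makes Lewis X sugars, from 0.138 and 0.135 to 11.7 and 13.4 CPM. By level, the largest gains beside the keratins included Thbs1, the matrix protein thrombospondin 1, from 499 and 528 to 3313 and 3032 CPM, and Anxa2, a membrane-binding annexin, from 537 and 534 to 1684 and 3274 CPM. In both, each resistant value exceeded the parental value of its line (1905 and 1332 CPM for Thbs1, 1510.1 and 1834 CPM for Anxa2). Laminin genes Lama3 and Lamb1, the integrin gene Itgb6 and Hspg2, perlecan, were the 4 called of 24 matrix and integrin genes, all higher.

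In the remaining epithelial and stress lists at most 2 members were called. Chaperones of the endoplasmic reticulum had none of 25 called and a median of 0.01, which turned to -0.15 with no scaling beyond library size. Cytosolic ribosomal protein genes had none of 53 called (median -0.06). Mitochondrially encoded genes had none of 13 called (median 0.37), the heat shock list had Hsf1 alone of 24 (median -0.39), and the lysosome and autophagy list had Ctsh higher and Ulk1 lower of 34 (median -0.24). In fatty acid oxidation the adipose and lipid receptor gene Pparg rose, from 41.2 and 43.1 to 89.8 and 81.3 CPM (1 of 28, near the background share of 4.14%, median 0.07). The BMP and activin ligand genes Bmp2 and Inhba rose in the TGF-beta list (2 of 27, median 0.61), Nrarp and Maml2 in the Notch list (2 of 19, median 0.65), and Itgb6 and Mmp14 in the mesenchymal list (2 of 13, median 1.72).

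**Figure D4:**
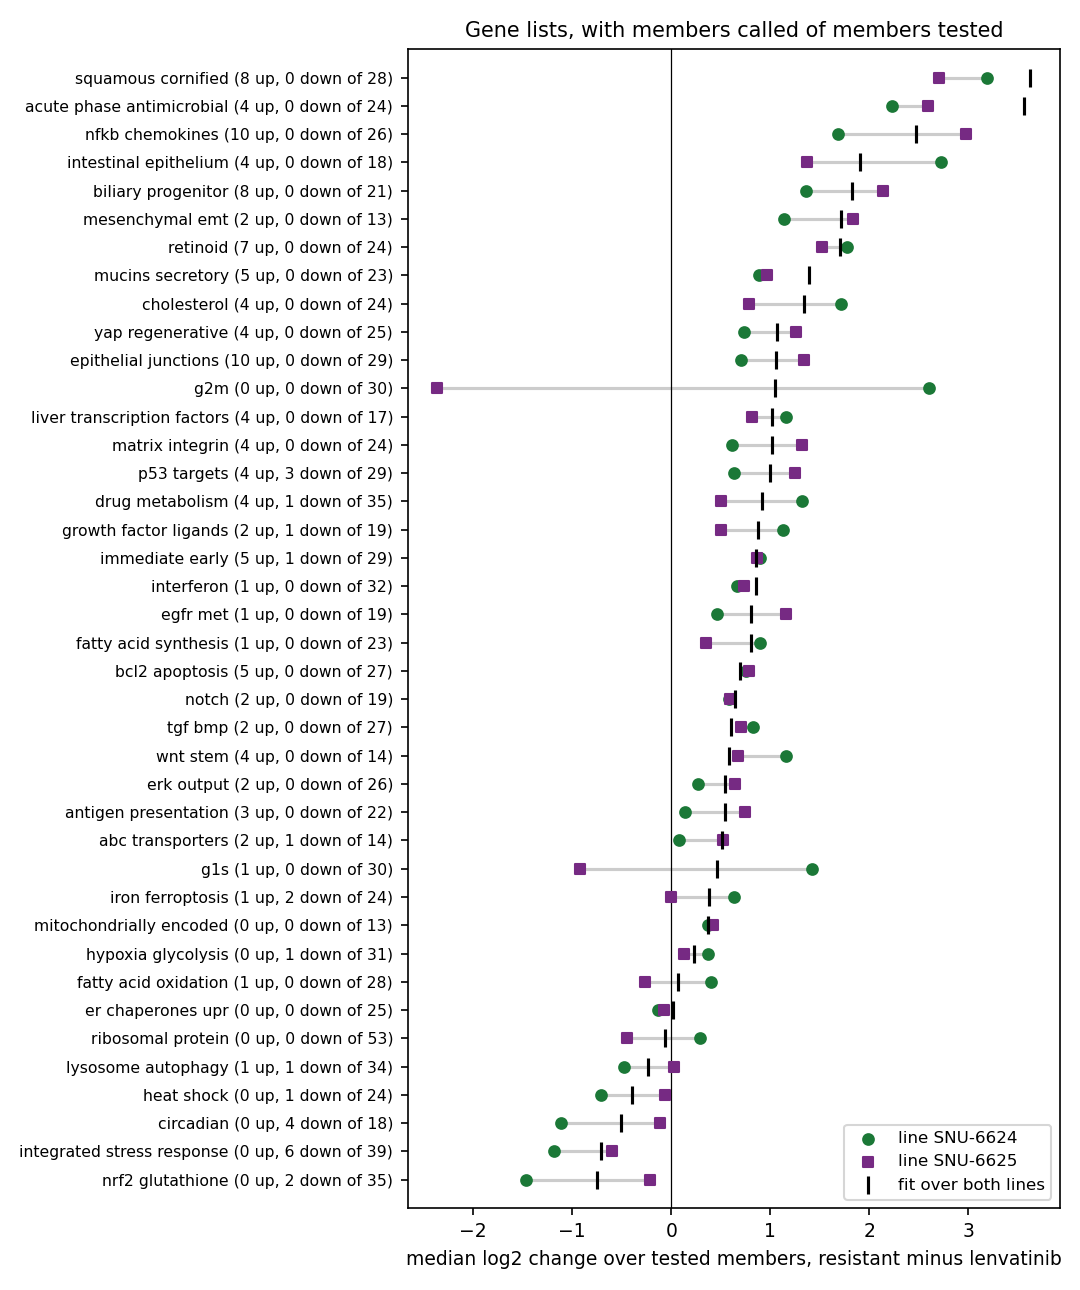
Median log2 change over the tested members of each gene list with 10 or more of them, within SNU-6624 (green circles), within SNU-6625 (purple squares) and in the fit over both lines (black ticks), with the members called up and down. Squamous (3.62) and acute phase (3.56) genes have the highest medians and NRF2 genes (-0.75) the lowest, and the lines point opposite ways for the G2/M and G1/S lists. Per-line values use a prior count of 2, so low genes are pulled towards 0 there.

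Cell cycle genes split the lines. The G2 and M phase list had none of 30 tested genes called, with a median log2 change of 2.60 in SNU-6624 against -2.36 in SNU-6625. Summed over the list, the level was 118 and 126 CPM in the lenvatinib libraries, 361 CPM in resistant SNU-6624, 32.4 CPM in resistant SNU-6625, and 1368 and 1529 CPM in the parental libraries. Resistant SNU-6624 was thus between the lenvatinib and parental levels, and resistant SNU-6625 was the lowest of the 6 libraries. Mki67, the proliferation marker Ki-67, had 12767 and 11437 counts in parental, 84 and 105 in lenvatinib and 1970 and 17 in resistant libraries. Ccnb1, the mitotic cyclin B1, had 86 and 72 counts with lenvatinib and 483 and 0 in resistant organoids, where 0 counts allow up to 0.0492 plain CPM. Top2a, the topoisomerase of dividing cells, had 616 and 710 and 2324 and 64 counts. The 3 genes were chosen after their values were seen, and none was called (adjusted p = 0.426, 0.781 and 0.893). Kif23, a kinesin of cell division, had the smallest p of the list and was higher in both lines (6.54 and 6.78 CPM with lenvatinib, 39.7 and 16.7 CPM in resistant organoids, adjusted p = 0.0545).

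DNA replication genes had the same split to a lesser extent, with a median of 1.42 in SNU-6624 against -0.92 in SNU-6625 over 30 tested genes of the G1/S list. Mcm5, a subunit of the replicative helicase, had 118 and 102 counts with lenvatinib and 1860 and 29 in resistant organoids. E2f2, an E2F factor of the cell cycle, was the called exception and rose in both lines, from 8 and 7 to 132 and 202 counts (log2 fold change 4.58, SE 0.44, adjusted p = 0.0285). Its call alone among 30 genes is near the background share of 4.14%. With 1 library a side in each line, the difference between the lines was not tested. Ribosomal protein genes pointed the same way as the cell cycle, with a median of 0.29 in SNU-6624 against -0.45 in SNU-6625.

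**Figure D5:**
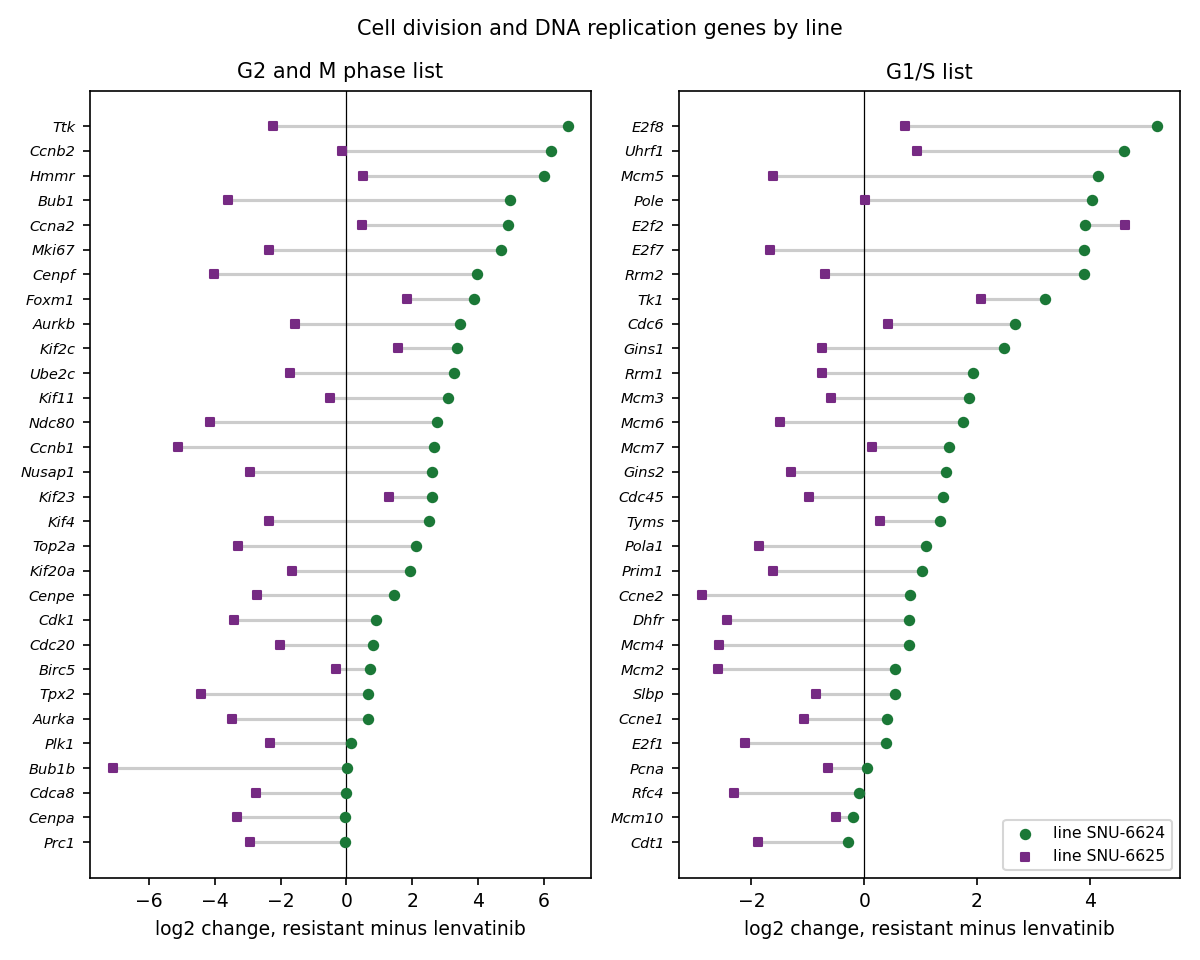
Log2 change from lenvatinib to resistant library for each gene of the G2/M list (left) and the G1/S list (right), in SNU-6624 (green circles) and SNU-6625 (purple squares), 1 library a side. Most genes lie right of 0 in SNU-6624 and left of 0 in SNU-6625, and E2f2 is on the right in both lines.

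Markers of other cell types were mostly absent. No library of the 4 held more than 3 counts of 13 of 16 fibroblast and stellate cell genes, of 7 of 14 endothelial, 11 of 16 macrophage and 14 of 17 lymphocyte genes, and of all 7 red blood cell genes. Ptprc, the common leukocyte antigen, had 0 counts in all 6 libraries. The summed macrophage markers were nevertheless higher in resistant libraries, at 87.6 and 155 CPM, than with lenvatinib, at 61.5 and 51.2 CPM, and in parental libraries, at 66.7 and 57.8 CPM. Without Cd14, left out after its values were seen, the sum was 38.2 and 44.2 CPM in resistant and 47.95 and 31.8 CPM in lenvatinib libraries, lower in SNU-6624 and higher in SNU-6625. Csf1r, a macrophage growth factor receptor, was called higher with 3 and 4 counts against 36 and 73 counts, and so was Cd14, a lipopolysaccharide co-receptor, from 13.2 and 17.7 to 49.1 and 125 CPM. Mrc1, the mannose receptor of macrophages and some endothelium, is not on the list and had 0 counts in both lenvatinib libraries and 18 and 786 counts in the resistant ones, at least 122-fold higher at the floor of 3 counts per library, and this rests mainly on SNU-6625. Cd14, Csf1r and Mrc1 moved in the same direction as the NF-kB list and were highest in resistant SNU-6625. Their part in that result was not tested. Endothelial markers summed to 4.28 and 5.92 CPM with lenvatinib and 8.39 and 5.33 CPM in resistant organoids, and fibroblast markers to at most 1.05 CPM in any of the 4 libraries.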

How the data were processed

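Per the labels' protocols, RNA came from cell lysates by Trizol and column kits, and poly(A) libraries were made with a stranded kit. The deposited files hold whole-number read counts for 45777 genes. Per the submitters' processing notes, reads were handled with HISAT2 2.1.0 and Bowtie2 2.3.4.1, StringTie 2.1.3b, Trimmomatic 0.38 and FastQC 0.11.7 on build mm10. The counting step and its strand setting were not given in the sources used here, and overlapping genes on opposite strands cannot be told apart. Positions are from RefSeq (GRCm38.p6), matched by gene identifier for 45675 genes.

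Counts of 6 libraries, the parental, lenvatinib and resistant ones of lines SNU-6624 and SNU-6625, entered 1 model with terms for group and for line. TMM scaled the libraries, filterByExpr kept 17038 genes, and edgeR 4.0.16 (R 4.3.3) gave the quasi-likelihood F test. There were 2 residual and 2.53 prior degrees of freedom, and the biological coefficient of variation was 0.336. P-values were adjusted by Benjamini-Hochberg over all tested genes, with a threshold of 0.05. The SE equals the size of the log2 fold change over the root of F. CPM are TMM-scaled, except that summed levels of lists, floors and fold bounds are plain CPM. Changes within a line are log2 ratios of CPM with a prior count of 2. The same cell line entered each group, which pairs the libraries, and deviations of the lenvatinib and resistant libraries from their group means correlated by line at 0.290 across genes. The labels do not say whether libraries of a line were separate cultures, so p-values measure only the spread between these libraries. The steps were also run on simulated counts with known changes in the resistant libraries. Those counts had no differences between lines and the same spread in each group, unlike these data, so the run does not check the calls.

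The comparison, lists and motifs were chosen with earlier results of these data known. Named genes were the 12 largest called rises and falls (5 CPM or more in the higher group), the 10 largest called CPM gains and losses, up to 4 called members per list and direction, targets of lenvatinib with 1 CPM or more, and the 2 smallest p-values of lists with none called. Provisional gene symbols were left out, and some called list members are counted but not reported here by name. Other list members with values, such as Asns, Chac1, Atf3, Txnrd1, Gclm, Fth1, Sox9, Epcam, Trp63, Lcn2, Saa1, Dusp6, Egfr, Hmgcs1, Fasn, Cdkn1a, Mcm5, and called members beyond 4 per list, were chosen after their values were seen. Alternatives were a fit without line, 4 or 8 libraries, DESeq2 1.42.0, limma 3.58.1 (voom, and trend on log2(CPM + 1)), 3 other scalings, 2 other filters, removal of genes above 1% of counts, a minimum of 2-fold, and each library left out.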

Additional observations from a re-analysis of the deposited data

Results flagged for a closer look

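The median log2 change of the G2 and M phase list from lenvatinib to resistant organoids was 2.60 in SNU-6624 and -2.36 in SNU-6625, and that of the G1/S list was 1.42 and -0.92. These medians have opposite signs in the 2 lines. Each line has 1 library a side, so the difference was not tested.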

How the results depend on the processing

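The count of calls moved widely, while directions of the called genes under the naming rule held. These genes were picked by a small p in the same libraries, so a reversal was unlikely and their direction is no independent check. Against 1061 calls (706 higher, 355 lower), a fit to the 4 resistant and lenvatinib libraries gave 234 (215 and 19), DESeq2 3508 (2178 and 1330), no filter beyond a count above 0 gave 324 (258 and 66), at least 5 CPM in 2 libraries gave 1660 (637 lower), and a minimum of 2-fold gave 94 (90 and 4). Lower calls rose to 604 with limma-voom and 663 with no scaling. Leaving out 1 library gave 0 to 6286 calls (0 to 3374 higher, 0 to 2912 lower), with 0 when either lenvatinib library was left out. The number of libraries and of genes tested differs in part of these fits, and otherwise the cause was not tested. In the fit with no replicate block for line, which ignores the pairing, 1119 genes were called, 803 of them shared. Of the 134 called genes under the naming rule none reversed in any of the 19 alternatives in which it had a value, and 48 stayed called with 4 libraries, 59 without the filter and 105 without the block.

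Uncalled genes at low counts did reverse. Fgfr3 (0.11) was -0.085 with no scaling and -0.48 to 0.58 with 1 library left out, lowest without resistant SNU-6625 and also below 0 (-0.20) without lenvatinib SNU-6624. Flt4 (-0.57) ran from -1.14 to 0.15 with 1 library left out, highest without lenvatinib SNU-6625. The G2/M list median of 1.05 was -2.75 without resistant SNU-6624 and -0.24 without lenvatinib SNU-6624. With 2 libraries a side, 5173 genes had an unadjusted p under 0.05, and the smallest adjusted p was 0.0174.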

Other observations

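Other motifs were counted in the same promoters as a description. The heat shock element GAANNTTC was in 8 of 19 promoters of tested heat shock genes and in 6.2% of all 12198 promoters, and TGACNNNGC, a core of the NRF2 element, in 8 of 30 of the NRF2 list and 13.8% of all. The cell cycle motif TTTGAA was in 9 of 25 promoters of the G2/M list and 13.7% of all, and the E2F motif TTTCCCGC in 3 of 24 of the G1/S list and 1.79% of all. The sterol motif TCACNCCAC was in 1 of 16 promoters of the cholesterol list, 1 of 18 of the fatty acid synthesis list and 1.24% of all. The HNF4 motif CAAAGTCCA was in none of 10 promoters of liver transcription factors, none of 15 of the biliary list and 0.443% of all, and the NF-kB motif was in 2 of 18 of the acute phase list.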
